A study of Mus musculus with 6 samples.

Results

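Hmces, the gene targeted in the knockout mice, was examined beside 9 genes of base excision repair that make or process abasic sites. All 10 members were chosen by name for their roles, with earlier results of these data known, and were found among the 23235 genes of the deposited table, where Hmces carries its earlier symbol 8430410A17Rik. All 10 also passed the filter on low values that left 11532 genes for testing. RNA came from LT-HSCs (long-term haematopoietic stem cells), the bone marrow cells that sustain blood formation for life, sorted from mice of strain C57BL/6 at 2 months of age. The 3 wild type (WT) and 3 Hmces knockout libraries were each made from 1500 sorted cells by Smart-seq2, a method that amplifies full-length cDNA from small inputs. The design text mentions duplicates, but the labels and the table hold 3 libraries of each genotype, and all 6 were used. The sources used here do not give the kind of Hmces allele, the sorting gates, the meaning of the 13bp tag in every title, or whether each library came from its own mouse, so the p-values reflect no more than the spread among these libraries.

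An abasic site is a sugar in DNA that has lost its base. Glycosylases make such sites when they cut out a damaged base such as uracil or 8-oxoguanine, an AP endonuclease then nicks the backbone, and DNA polymerase beta removes the sugar remnant and fills the gap. HMCES acts at abasic sites in single-stranded DNA, where no template strand is available for this repair. It forms a covalent bond with the site through the cysteine that follows its start methionine, and so shields the site from cleavage.

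The start of the mouse Hmces coding sequence is shown because it holds the codon of that cysteine. The 60 bases lie on the forward strand at chr6:87914513-87914572 (GRCm38), in exon 2 of transcript Hmces-201 of GENCODE M21, whose coding sequence of 1062 bases encodes 353 amino acids. Capitals mark the second codon, TGC, which encodes cysteine.

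Hmces coding start: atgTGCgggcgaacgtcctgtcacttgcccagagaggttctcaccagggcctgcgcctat

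Levels are given as FPKM, fragments scaled to transcript length and to the mapped total of the library, and can therefore be compared between genes. Depth, estimated from the step size of low values, ran from 9300000 to 14200000 fragments per library. On the first principal component, knockout replicate 2 lay at 67.0 and the other 5 libraries at -33.6 to 10.1. The 10 LT-HSC markers checked were each detected, summing to 544 to 599 FPKM in the WT and to 691 to 714 FPKM in the knockout libraries. Some were low, with means in WT and knockout of 0.694 and 0.929 FPKM for Fgd5 and 3.46 and 2.43 FPKM for Slamf1. The 4 progenitor markers Cd34, Flt3, Cd48 and Fcgr3 summed to 757 to 848 FPKM in WT and 890 to 936 FPKM in knockout libraries. These sums do not show how pure the sorted cells were. Markers of granulocytes and monocytes were present too, and all 10 had a higher mean in knockout cells. Of all tested genes, 51.9% had a negative log2 difference (knockout minus WT). The sum of the 10 was 6904 to 10647 FPKM in WT and 18971 to 25369 FPKM in knockout libraries. Mpo and Ctsg were among the 13 genes called over all (limma adjusted p = 0.031 and 0.049), and the other 8 were not. Mpo had means of 177 (WT) and 1160 FPKM (knockout), and Ctsg 56.0 and 544 FPKM. The part of these 10 markers in the results below was not tested. In such bulk samples, fewer cells of a type and less RNA per cell cannot be told apart.

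Hmces was the member that differed most. It was read at 39.5, 45.4 and 41.0 FPKM in WT replicates 1 to 3 and at 8.95, 0.222 and 6.95 FPKM in knockout replicates 1 to 3. The highest knockout value was below the lowest WT value, so the transcript followed the labels. The WT level exceeded that of 75.7% of the tested genes. The knockout mean of 5.37 ± 4.57 FPKM was 12.8% of the WT mean of 42.0 ± 3.03 FPKM (SD, n = 3 each).

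The knockout libraries disagreed with each other on Hmces by more than counting error. Knockout replicate 2 held an estimated 3 fragments, for which counting alone allows 0.0437 to 0.619 FPKM (exact Poisson 95% interval). Knockout replicates 1 and 3 held an estimated 108 and 82 fragments, with intervals of 7.37 to 10.9 and 5.54 to 8.65 FPKM. Those 2 intervals overlap each other and lie wholly above that of replicate 2. Near-zero values in 1 library were not peculiar to knockout replicate 2. Among genes averaging at least 10 FPKM in the other 5 libraries, 114 of 6657 were under 0.5 FPKM in that library, against 103 to 135 genes in each of the others, a count made after the value was seen. Hmces is itself among these 114 through its WT values, since knockout replicates 1 and 3 were under 10 FPKM.

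The log2 difference for Hmces, computed on log2(FPKM + 1) as knockout minus WT, was -3.23 (SE 0.71, 95% interval -4.86 to -1.59), which did not pass the adjusted test (limma adjusted p = 0.289). It ranked 75 among the tested genes by p. Without knockout replicate 2 the difference was -2.27 and passed (limma adjusted p = 0.046, range over 15 alternatives 0.046 to 0.803). In the other 14 it did not pass. The exact permutation test gave 0.1, the smallest p that 3 against 3 libraries allow.

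**Figure D1:**
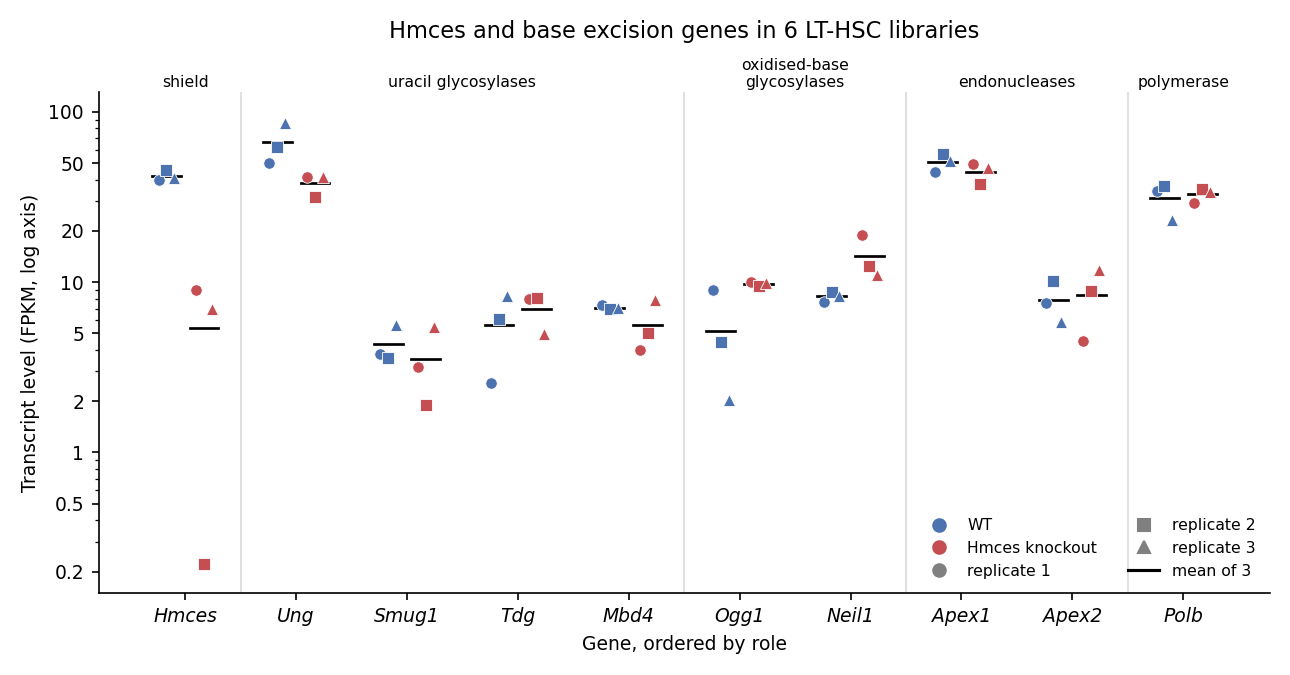
Level of each member in every library, in FPKM on a log axis, with genes ordered by role; blue points are WT, red points Hmces knockout, shapes give the replicate number and black bars the mean of 3. Hmces lies at 39.5 to 45.4 FPKM in WT and at 0.222 to 8.95 FPKM in knockout libraries, and the groups also do not overlap for Ung, Ogg1 and Neil1.

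Of the 10 members, 0 passed the limma test at an adjusted p under 0.05, where 0.113% of all tested genes did. At an unadjusted p under 0.05 there were 4 (Hmces, Ung, Ogg1 and Neil1), against a background of 9.16% of tested genes. The same 4 had WT and knockout values that did not overlap, whereas 15.8% of tested genes had non-overlapping groups. Hmces and Ung were lower in knockout libraries, a pattern of 8.34% of tested genes, and Ogg1 and Neil1 were higher, a pattern of 7.47%. With Hmces, which the knockout targets, set aside, 3 of 9 did not overlap. The median log2 difference of these 9 was 0.03, with 4 negative and 5 positive, beside a median of -0.01 over all tested genes.

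Ung had the highest level of the 10 in WT cells. It encodes the main uracil-DNA glycosylase of replicating cells, which removes uracil placed opposite adenine during synthesis or left by cytosine deamination. It was read at 50.1, 62.2 and 86.0 FPKM in WT replicates 1 to 3 and at 41.6, 31.7 and 41.6 FPKM in knockout replicates 1 to 3. All 3 knockout values were below the lowest WT value, and WT replicate 3 was the highest of the 6. The means were 66.1 ± 18.2 and 38.3 ± 5.71 FPKM (SD, n = 3 each), so that knockout cells held 58.0% of the WT level.

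The log2 difference for Ung was -0.75 (SE 0.22, 95% interval -1.25 to -0.24) and did not pass (limma adjusted p = 0.426, range over 15 alternatives 0.26 to 0.814). Without WT replicate 3 it was -0.54. Alkbh2, a gene for an alkylation repair enzyme that overlaps Ung in the RefSeq annotation, was also lower in knockout libraries, at 7.89, 4.76 and 5.47 FPKM against 9.43, 8.99 and 9.77 FPKM in WT (limma adjusted p = 0.546). The sources used here do not say whether reads were counted by strand, so those from the shared stretch cannot be assigned to either gene with certainty. Genes of DNA synthesis, which mark cycling cells, summed to 1368 to 1498 FPKM over 10 genes in WT and to 1198 to 1326 FPKM in knockout libraries, without overlap. Of these 10 genes, 9 had a negative log2 difference, as did 51.9% of all tested genes. The exception was Mki67, with means of 7.73 (WT) and 10.1 FPKM (knockout) and a log2 difference of 0.31. Of the 10, 4 had groups that did not overlap, all lower in knockout cells, a pattern of 8.34% of all tested genes. None of the 10 passed the limma test, and 3 had an unadjusted p under 0.05, beside 9.16% of all tested genes. Their part in the Ung difference was not tested.

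The promoters of Hmces and Ung, the 2 members whose knockout values all lay below WT, are shown as given by RefSeq (GRCm38.p6), from 250 bases before to 50 bases after the transcription start. Both lie on the forward strand, Hmces at chr6:87913726-87914025 and Ung at chr5:114130185-114130484. Capitals mark the GC box, GGGCGG or CCGCCC on the other strand, the letters bound by SP1-type factors, with overlapping matches counted.

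Hmces promoter: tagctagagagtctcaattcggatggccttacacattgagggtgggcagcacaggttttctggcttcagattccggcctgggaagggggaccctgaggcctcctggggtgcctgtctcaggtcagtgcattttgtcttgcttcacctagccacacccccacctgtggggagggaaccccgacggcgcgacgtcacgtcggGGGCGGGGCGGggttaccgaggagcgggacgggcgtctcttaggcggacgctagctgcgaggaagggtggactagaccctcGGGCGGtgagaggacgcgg

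Ung promoter: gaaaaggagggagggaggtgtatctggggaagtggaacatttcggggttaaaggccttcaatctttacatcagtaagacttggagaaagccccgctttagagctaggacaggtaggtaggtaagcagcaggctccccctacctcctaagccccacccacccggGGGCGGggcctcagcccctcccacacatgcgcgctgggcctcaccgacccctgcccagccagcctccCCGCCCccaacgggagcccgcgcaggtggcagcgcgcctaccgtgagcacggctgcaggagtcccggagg

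The Hmces window held 3 GC boxes and 22 CpG dinucleotides, and the Ung window held 2 GC boxes and 16. The median over all windows was 7 CpG dinucleotides, and no comparison was made with windows of like CpG content. A promoter was found for 8 members, all but Apex2 and Polb, and 6 of these 8 held a GC box, as did 35.7% of the 32851 windows in the table. The E-box CACGTG, whose letters read the same on both strands and which is bound by MYC and USF factors, was found 3 times in the Apex1 window and once in that of Tdg. It was absent from the other 6 member windows and present in 7.15% of all windows. These matches are descriptions of the letters alone.

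The other uracil-removing glycosylases were less abundant than Ung and did not separate the genotypes. Smug1 encodes a glycosylase for uracil and 5-hydroxymethyluracil, and measured 3.77, 3.61 and 5.62 FPKM in the WT libraries, against 3.19, 1.91 and 5.47 FPKM in knockout replicates 1 to 3. Tdg and Mbd4 encode glycosylases for thymine or uracil mispaired with guanine, and TDG also removes the oxidised forms of 5-methylcytosine. Tdg measured 2.57, 6.06 and 8.29 FPKM in the WT libraries, against 7.92, 8.06 and 4.98 FPKM in knockout replicates. Mbd4 was nearly constant in WT, at 7.29, 6.92 and 7.01 FPKM, and spread from 4.02 and 5.06 to 7.83 FPKM in knockout replicates 1 to 3.

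For all 3 genes the groups overlapped. The log2 differences were -0.29 for Smug1 (95% interval -1.15 to 0.56), 0.35 for Tdg (-0.57 to 1.27) and -0.32 for Mbd4 (-0.98 to 0.33), with limma adjusted p of 0.829, 0.81 and 0.75. These intervals do not show that the levels were equal: each leaves room for a change of over 0.5 in at least 1 direction. The sign for Tdg rested on WT replicate 1, without which the difference was -0.044. Tdg has a named pseudogene copy in the annotation, so its level is less certain. In RefSeq, Glt8d2 overlaps Tdg and Ift122 overlaps Mbd4, which also makes these levels less certain.

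Within a library, Ung made up a smaller part of the uracil glycosylase transcripts in knockout cells. Of the summed FPKM of Ung, Smug1, Tdg and Mbd4, Ung took 78.6%, 78.9% and 80.4% in WT replicates and 73.3%, 67.9% and 69.5% in knockout replicates 1 to 3. The sum itself was 63.8, 78.7 and 107 FPKM in WT and 56.8, 46.8 and 59.9 FPKM in knockout replicates. Neither the share nor the sum overlapped between the groups, but Ung made up most of the sum, so both largely restate the Ung values. Tdg took 4.04%, 7.69% and 7.76% in WT and 14.0%, 17.2% and 8.32% in knockout replicates, without overlap, although the Tdg levels themselves overlapped. A lower Ung raises the other shares by arithmetic. The Smug1 and Mbd4 shares overlapped between the groups. Such ratios do not depend on how a library was scaled, and no test was made of them because they combine members.

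Ogg1 and Neil1, the members that encode glycosylases for oxidised bases, had higher values in knockout libraries. Ogg1 encodes the glycosylase that removes 8-oxoguanine paired with cytosine, and measured 8.98, 4.48 and 2.04 FPKM in the WT libraries, against 9.997, 9.51 and 9.92 FPKM in knockout replicates 1 to 3. The knockout values nearly coincided, whereas the WT values ranged over 4.40-fold, and WT replicate 1 came close to the knockout level. The means were 5.17 ± 3.52 and 9.81 ± 0.264 FPKM (SD, n = 3 each), a 1.90-fold difference.

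The spread of Ogg1 among WT libraries was wide for its level. Only 2.50% of the 3527 tested genes within 2-fold of its mean level, and above 0 in all WT libraries, had a WT range at least as wide. The estimated fragments behind the WT values were 118, 79 and 39, with exact Poisson 95% intervals of 7.46 to 10.8, 3.54 to 5.57 and 1.45 to 2.78 FPKM, which do not overlap. The log2 difference was 0.97 (SE 0.42, 95% interval 0.01 to 1.94; limma adjusted p = 0.54), and 0.55 without WT replicate 3. Under quantile normalization the groups overlapped. Camk1, which overlaps Ogg1 in the annotation, had means of 87.4 ± 6.75 (WT) and 77.2 ± 6.07 FPKM (knockout; SD, n = 3 each), far above Ogg1 and with overlapping groups. The shared stretch makes the Ogg1 value less certain.

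Neil1 encodes a glycosylase that removes oxidised pyrimidines and can act on single-stranded DNA. It measured 7.66, 8.80 and 8.35 FPKM in the WT libraries, against 18.9, 12.4 and 11.1 FPKM in knockout replicates 1 to 3. Here the WT values were close together and the knockout values spread upwards, with replicate 1 the highest. The means were 8.27 ± 0.576 and 14.2 ± 4.20 FPKM (SD, n = 3 each), a 1.71-fold difference. The log2 difference was 0.68 (SE 0.25, 95% interval 0.10 to 1.26; limma adjusted p = 0.502), and 0.46 without knockout replicate 1. In RefSeq no gene overlaps Neil1, and its neighbours Man2c1 and Commd4 had overlapping groups.

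**Figure D2:**
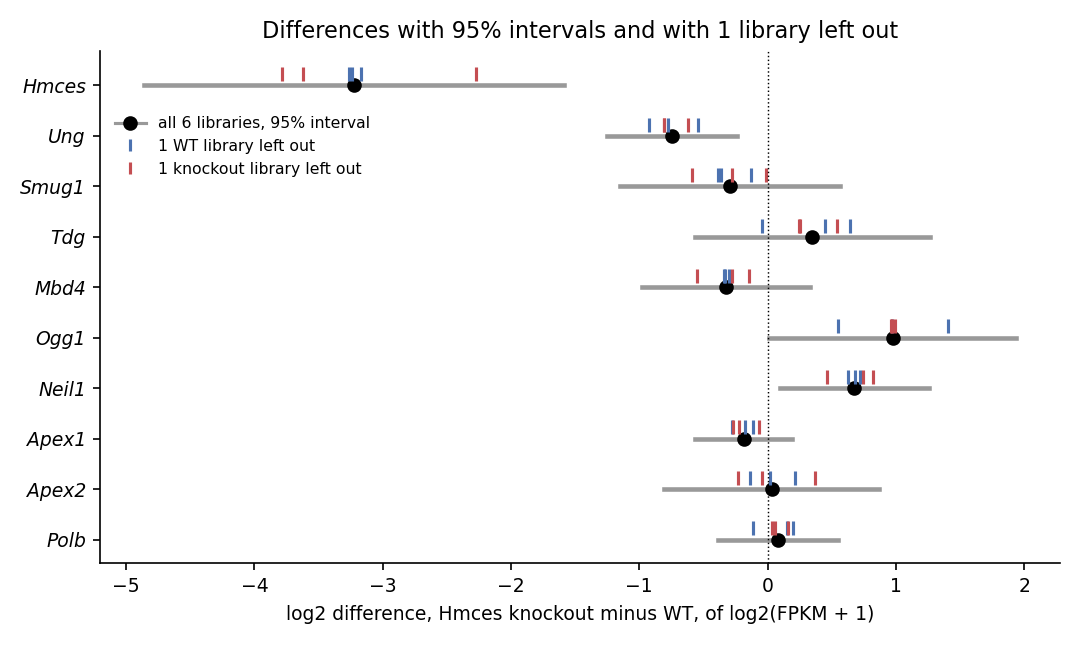
Log2 difference of each member (knockout minus WT, from log2(FPKM + 1)); black points and grey bars are the limma estimate and 95% interval from all 6 libraries, and ticks above are the estimate with 1 WT (blue) or 1 knockout (red) library left out. The intervals of Hmces, Ung, Ogg1 and Neil1 lie on one side of 0 before adjustment over all genes, and the ticks of Apex2, Polb and Tdg fall on both sides.

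The AP endonuclease genes overlapped between the genotypes. Apex1 encodes the main abasic-site endonuclease of the cell, and measured 44.6, 56.4 and 51.4 FPKM in the WT libraries, against 49.7, 37.5 and 46.7 FPKM in knockout replicates 1 to 3. Its log2 difference of -0.19 had the narrowest interval of the 10, from -0.57 to 0.19 (limma adjusted p = 0.75). Apex2 encodes a related nuclease with weak endonuclease and stronger 3' end cleaning activity that works with PCNA. It measured 7.52, 10.2 and 5.84 FPKM in the WT libraries, against 4.54, 8.84 and 11.8 FPKM in knockout replicates (log2 difference 0.03, 95% interval -0.80 to 0.87; limma adjusted p = 0.989). The sign of the Apex2 difference turned without WT replicate 3, knockout replicate 2 or knockout replicate 3.

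Apex2 amounted to 15.4% ± 3.59 of the Apex1 level in WT and 19.3% ± 8.86 in knockout cells (SD, n = 3 each), with overlapping values. RefSeq places Apex2 over several other genes, among them Alas2 and Tmem29, which makes its value less certain.

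Polb encodes DNA polymerase beta, which removes the sugar remnant and inserts the missing nucleotide. It measured 34.1, 36.5 and 23.3 FPKM in the WT libraries, against 29.2, 35.1 and 33.8 FPKM in knockout replicates 1 to 3. The groups overlapped, and 4 of the 6 libraries lay between 33.8 and 36.5 FPKM. The log2 difference was 0.08 (95% interval -0.38 to 0.55, limma adjusted p = 0.926). It was -0.11 without WT replicate 3, the library with the lowest value. A930013F10Rik, which overlaps Polb in RefSeq, had means of 0.521 (WT) and 2.51 FPKM (knockout), with groups apart (limma adjusted p = 0.495). The shared stretch makes the Polb value less certain.

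Members were also set against Apex1 within each library. Ogg1 and Neil1 together came to 37.3%, 23.6% and 20.2% of the Apex1 level in WT and to 58.2%, 58.6% and 45.0% in knockout replicates 1 to 3. Ung came to 112%, 110.3% and 167% in WT and to 83.8%, 84.6% and 89.1% in knockout replicates. For both ratios the groups did not overlap, in opposite directions. The Ogg1 and Neil1 ratio combines members already seen to be higher and does not stand for oxidised-base glycosylases as a class, which these values cannot decide. With Neil3 and Nthl1 added, the sum was 106%, 83.8% and 82.0% of Apex1 in WT and 118%, 97.8% and 146% in knockout replicates 1 to 3, with overlap. That overlap came from knockout replicate 2 alone, the library in which Nthl1 measured 0.305 FPKM. The sum without Nthl1 was not tested. Polb came to 62.2% ± 15.8 of Apex1 in WT and 74.9% ± 17.5 in knockout cells (SD, n = 3 each), with overlap. Hmces itself was at 79.8% to 88.6% of Apex1 in WT and at 0.592% to 18.0% in knockout libraries.

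**Figure D3:**
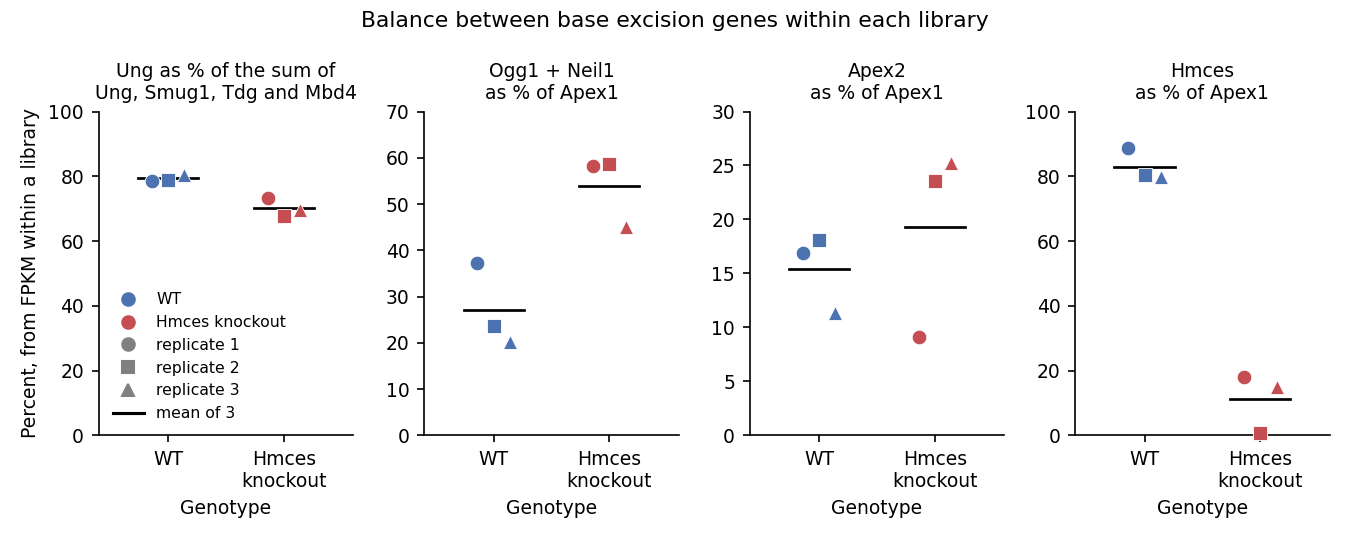
Percentages computed from FPKM within each library, WT in blue and Hmces knockout in red, shapes giving the replicate number and bars the mean of 3; every axis starts at 0 and each has its own scale. The groups are apart for the Ung share (78.6% to 80.4% against 67.9% to 73.3%), for Ogg1 plus Neil1 and for Hmces, and overlap for Apex2.

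In WT cells the 10 members fell into an upper and a lower tier. Ung at 66.1, Apex1 at 50.8, Hmces at 42.0 and Polb at 31.3 FPKM formed the upper tier. Neil1 at 8.27, Apex2 at 7.85, Mbd4 at 7.07, Tdg at 5.64, Ogg1 at 5.17 and Smug1 at 4.33 FPKM formed the lower. Among neighbours in this order, only Hmces and Polb, and Polb and Neil1, had values that did not overlap. In knockout cells the order of means was Apex1 at 44.6, Ung at 38.3, Polb at 32.7, Neil1 at 14.2, Ogg1 at 9.81, Apex2 at 8.39, Tdg at 6.99, Mbd4 at 5.64, Hmces at 5.37 and Smug1 at 3.52 FPKM. There, Polb and Neil1, and Neil1 and Ogg1, did not overlap, and the other neighbours did. Hmces thus passed from the third place to the ninth, within the lower tier.

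Precision differed between the tiers. The 6 genes of the lower tier rested on an estimated 39 to 340 fragments per library, and Ung, Apex1 and Polb on 278 to 2180. The range among WT libraries was unusually wide for Ung and Tdg as well as Ogg1. A WT range at least as wide was found in 5.85% of tested genes of similar level for Ung and 6.39% for Tdg, against 98.6% for Mbd4 and 85.2% for Hmces.

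Other genes of the pathway gave no call. Of 42 genes listed, 38 passed the filter, and 0 of these passed the limma test, beside 0.113% of all tested genes. An unadjusted limma p under 0.05 was reached by 6 (4 lower in knockout cells and 2 higher), beside 9.16% of all tested genes. For 7 of the 38 the groups were apart, a share of 18.4% beside the 15.8% of all tested genes, and the median log2 difference was -0.08.

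The other glycosylase genes gave no direction as a group. Of 5, Neil2 did not pass the filter, and 0 of the remaining 4 passed the limma test, beside 0.113% of all tested genes. None of the 4 had non-overlapping groups, beside 15.8% of all tested genes. An unadjusted limma p under 0.05 was reached by 0, beside 9.16%. Mpg, for a glycosylase of alkylated purines, had means of 14.4 ± 2.08 (WT) and 17.3 ± 1.44 FPKM (knockout; SD, n = 3 each; limma adjusted p = 0.706). Nthl1, for a glycosylase of oxidised pyrimidines, measured 15.6, 15.9 and 12.2 FPKM in the WT libraries, against 11.2, 0.305 and 19.3 FPKM in knockout replicates 1 to 3. Like Hmces, it was near 0 in knockout replicate 2, yet its other knockout values lay on both sides of WT.

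The gap filling, end cleaning and ligation genes were 17, of which 0 passed the limma test, beside 0.113% of all tested genes. An unadjusted p under 0.05 in limma was found for 1, beside 9.16% of all tested genes. That gene was Pold2, for a subunit of polymerase delta, which extends repair patches and replicates the lagging strand. It measured 77.9, 96.7 and 92.7 FPKM in the WT libraries, against 63.2, 56.2 and 62.1 FPKM in knockout replicates, with no overlap (log2 difference -0.55, SE 0.13, limma adjusted p = 0.324). Tdp1, for a phosphodiesterase that clears blocked 3' ends, had 43.9 ± 6.74 and 35.1 ± 6.60 FPKM (SD, n = 3 each; limma adjusted p = 0.646). The median over the 17 was -0.10, with 9 negative and 8 positive.

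The genes that introduce uracil or control the nucleotide pool held 4 of the 6 pathway genes with an unadjusted p under 0.05 in limma, out of 5 tested, beside 9.16% of all tested genes, and 0 passed the adjusted test. Dut, for the dUTPase that keeps uracil out of DNA, measured 137, 132 and 127 FPKM in the WT libraries, against 112, 108 and 101 FPKM in knockout replicates (log2 difference -0.30, SE 0.11, limma adjusted p = 0.495). Apobec1, for a cytidine deaminase known for RNA editing, measured 15.1, 13.4 and 13.5 FPKM in the WT libraries, against 20.3, 33.4 and 21.4 FPKM in knockout replicates (log2 difference 0.76, SE 0.23, limma adjusted p = 0.432). Apobec3, for an antiviral deaminase of single-stranded DNA, and Nudt1, for the enzyme that clears oxidised guanine nucleotides, fall outside the naming rule and were chosen after their values were seen. Apobec3 had 202 ± 7.69 and 164 ± 21.0 FPKM, and Nudt1 had 54.4 ± 4.92 and 42.2 ± 4.55 FPKM, in WT and knockout cells (SD, n = 3 each; limma adjusted p = 0.528 and 0.532).

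Among 12 tested genes that act on abasic sites at replication forks, 0 passed the limma test, beside 0.113% of all tested genes. An unadjusted p under 0.05 in limma was reached by 1, beside 9.16% of all tested genes. Ccdc111 (now Primpol), for the primase that restarts synthesis beyond a block, measured 8.92, 8.98 and 7.16 FPKM in the WT libraries, against 12.7, 16.4 and 15.3 FPKM in knockout replicates (log2 difference 0.76, SE 0.21, limma adjusted p = 0.401). Rev3l, for the catalytic subunit of polymerase zeta, measured 2.06, 1.47 and 2.91 FPKM in the WT libraries, against 0.970, 0.196 and 1.004 FPKM in knockout replicates (limma adjusted p = 0.548). Both had groups that did not overlap, in opposite directions, and no other of the 12 had. Over all tested genes the share without overlap was 15.8%, counting either direction. The median over the 12 was -0.04.

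**Figure D4:**
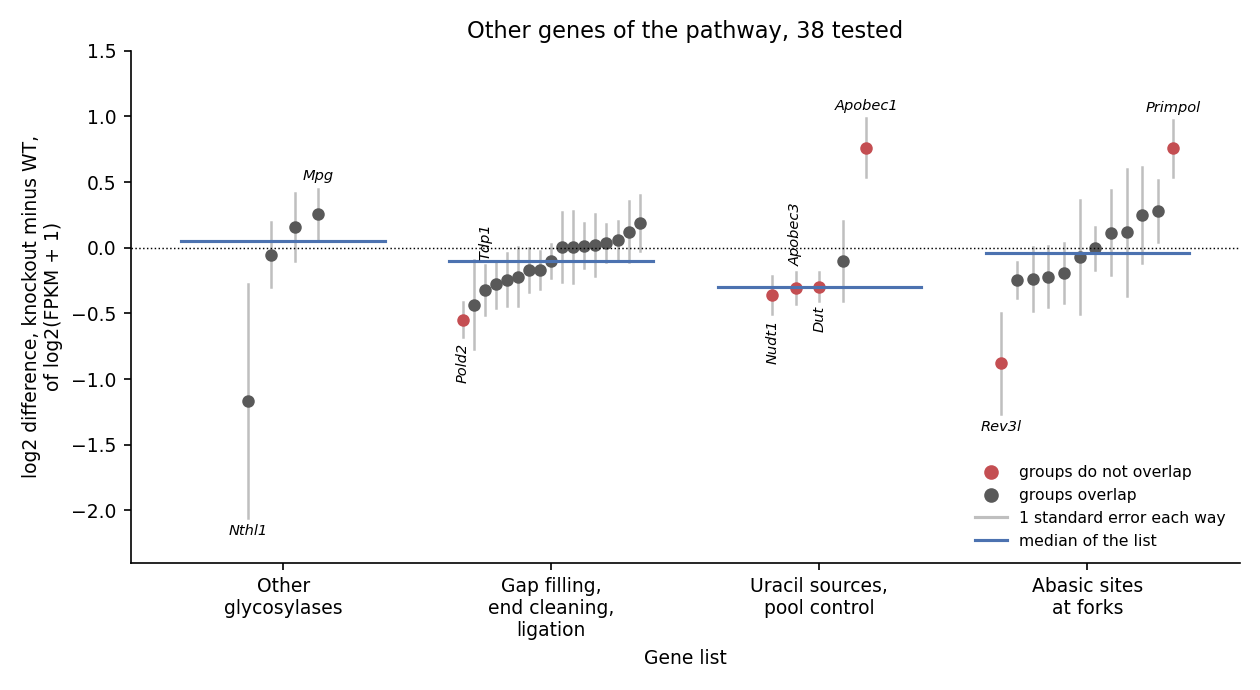
Log2 difference, Hmces knockout minus WT, of the 38 tested genes of the 4 other pathway lists; points are genes sorted within a list, grey bars 1 standard error each way, blue lines the list medians, and red points genes whose groups do not overlap. Apobec1 and Primpol (listed as Ccdc111) lie highest at 0.76, and the 4 list medians lie between -0.30 and 0.05.

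The genes whose pattern over the 6 libraries was most like that of Hmces were sought among 7586 genes, by the root mean square difference in standardised log2 levels, which ignores the size of a change. The 5 nearest were Lyar, Cd320, Pex19, Ssb and Ncaph2, at 0.0669 to 0.166. Each was lowest in knockout replicate 2, but by far less than Hmces: Lyar had means of 58.0 (WT) and 45.5 FPKM (knockout). For Ung the nearest included Zfp161, Dusp23, Zfp874a and Shcbp1, at 0.0618 to 0.134, and Zfp161 had 16.6 and 9.66 FPKM. None of these 9 genes passed the test (limma adjusted p between 0.461 and 0.544).

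The genes next to Hmces on chromosome 6 were read for a change around the targeted locus. Copg (now Copg1), the coatomer gene beside it, measured 66.1, 75.9 and 67.4 FPKM in the WT libraries, against 57.3, 60.9 and 62.6 FPKM in knockout replicates. Rab7, for a GTPase of late endosomes, measured 206, 193 and 178 FPKM in the WT libraries, against 153, 165 and 155 FPKM in knockout replicates. Neither overlapped between the groups, as was so for 15.8% of tested genes in either direction and 8.34% with lower knockout values. Neither passed the test (limma adjusted p = 0.659 and 0.506). H1fx (now H1f10), for a linker histone, had overlapping groups with means of 0.746 and 1.27 FPKM. These neighbours did not share the level of 12.8% of WT seen for Hmces.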

How the data were processed

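Per the labels' protocols, RNA from sorted cells was amplified by Smart-seq2, libraries were made from 500 pg of cDNA, and sequencing was paired-end (150 bp). The authors deposited 1 table of FPKM per gene. Cufflinks 2.2.1, TopHat2 2.1.1 and the build mm9 are listed in the submitters' processing notes; the sources used here give neither options nor annotation. Genes whose mean FPKM reached 1 were tested on log2(FPKM + 1) with limma 3.58.1 in R 4.3.3 (mean-variance trend, genotype as the only term, two-sided), and p-values were adjusted by Benjamini-Hochberg over all 11532 genes tested and called under 0.05. The fold scale understates changes of low genes. The script was tested on simulated data.

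FPKM holds no counts, so fragments were estimated from the value of 1 fragment in 1427 low single-transcript genes, assuming 200 nt fragments and GENCODE M21 lengths; intervals cover counting error only. All 10 members are named; in each other list, the 2 genes with the smallest p and any called gene; and for Hmces and Ung the 5 most alike genes with mean FPKM from 5 upwards, without predicted or small RNA genes (some genes under these rules are not reported here). Members and lists were chosen with earlier results of these data known. Of the 42 other pathway genes, Primpol and Sprtn were matched through synonyms. Promoters and gene order come from RefSeq (GRCm38.p6), used without conversion to mm9. Polb and Apex2 promoters were not used here. Alternatives covered the pseudocount, filter, scaling, variance model, small RNA genes, replicate number and each library.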

Additional observations from a re-analysis of the deposited data

How the results depend on the processing

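Each member's log2 difference was recomputed under 15 alternatives (14 for Smug1, which a filter at a mean FPKM of at least 5 removes). Of 149 such values, 143 kept their sign and their side of the threshold, 5 changed sign and 1 passed the threshold. Leaving out 1 library at a time gave -3.78 to -2.27 for Hmces, -0.044 to 0.64 for Tdg (-0.044 without WT replicate 1), -0.23 to 0.37 for Apex2 and -0.11 to 0.20 for Polb; every change of sign occurred there. The number of members called ranged from 0 to 1 over the libraries left out, the 1 being Hmces without knockout replicate 2, and was 0 under the other 9 alternatives. Of the other pathway genes, 0 were called under any of the 15. Across these alternatives Ung stayed between -0.93 and -0.54, Ogg1 between 0.55 and 1.40 and Neil1 between 0.46 and 0.82. Over all genes, 13 were called, against 1 with no filter, 6 without the variance trend, 20 with robust estimation, 32 without small RNA genes and 2 to 19 with 1 library left out.

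Libraries with the same number share only that number: deviations from the group means correlated at 0.0803, 0.0105 and 0.0352 for numbers 1 to 3, and not every library correlated best with its own number. With the replicate number as a block, 2 genes were called over all, 0 of them members, and Hmces was at -3.23 (limma adjusted p = 0.444). Depth limits the lower tier most: 39 fragments were estimated for Ogg1 in WT replicate 3.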

Other observations

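Within WT, replicate 3 held the highest Ung (86.0 FPKM), Smug1 (5.62 FPKM) and Tdg (8.29 FPKM) and the lowest Ogg1 (2.04 FPKM), Apex2 (5.84 FPKM) and Polb (23.3 FPKM) of the 3 libraries. Its sum over 10 DNA synthesis genes was 1498 FPKM, against 1468 and 1368 FPKM in WT replicates 1 and 2. In knockout libraries, replicate 1 held both the highest Neil1 (18.9 FPKM) and the lowest Apex2 (4.54 FPKM) and Mbd4 (4.02 FPKM). The 4 mast cell and eosinophil markers summed to 31.6 to 40.8 FPKM in WT and to 65.0 to 1000.3 FPKM in knockout libraries, without overlap. The highest sum, in knockout replicate 1, was mostly Prg2, an eosinophil granule protein gene, at 956 FPKM, whereas Cpa3, for a mast cell protease, was at 11.0 FPKM there, the lowest of the 6 libraries.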
